A study of Mus musculus with 16 samples.

Results

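The clustered protocadherins are 58 mouse genes in 3 neighbouring clusters on chromosome 18, chosen by their gene symbol (Pcdha, Pcdhb or Pcdhg) out of 36528 NCBI Gene IDs. The alpha cluster held 14 of them, the beta cluster 22 and the gamma cluster 22. The symbol alone decided which gene entered, but the family was proposed with its counts and RPKM over these 4 groups in view, so every call below is a description and not independent support. RNA had been sequenced from cells sorted by GFP from mouse tumours, which the titles call Colon AKVPL or Colon AKVPSL derived. Each of 4 groups had 4 libraries: AKVPL GFP-, AKVPL GFP+, AKVPSL GFP- and AKVPSL GFP+. By the series text the GFP sort follows Lgr5, the crypt stem cell receptor. AKVPL and AKVPSL are given as genotypes, and they differ in the letter S. The alleles behind the letters, the promoter or Cre that carried them, the age and strain of the mice, and any gate beyond GFP are left unstated by the labels. The labels do not say whether the libraries of a group came from separate animals, so p-values cover only library-to-library spread, which may be technical. The titles name the colon for all libraries, while the primary tissue field reads small intestine for 15 and colon for 1 (AKVPSL GFP- replicate 1). Neither is taken here as the site where the tumours grew.

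Clustered protocadherins are cadherin-like proteins of the cell surface that bind copies of themselves on neighbouring cells. They are best known from neurons, where each cell transcribes its own choice of members and so gains an identity that lets its branches avoid one another. In the alpha and gamma clusters each member has its own large variable exon, which encodes the extracellular part, joined to constant exons that all members of the cluster share and that encode a common cytoplasmic end. Beta members are made from a single exon and share none. Choice among the promoters depends on CTCF, cohesin and DNA methylation. The 5 C-type members (Pcdhac1, Pcdhac2, Pcdhgc3, Pcdhgc4 and Pcdhgc5) are known as more widely expressed than the others.

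Library totals spanned 10.9 to 41.6 M counts (M, the SI prefix mega; median 25.9 M). For Lgr5, the gene of the sort, the CPM (counts per M after TMM scaling; mean ± SD, n = 4) was 297 ± 40.0 in GFP+ against 65.7 ± 8.30 in GFP- cells of AKVPL, and 270 ± 15.0 against 67.7 ± 17.8 in those of AKVPSL. Smad4, for which the letter S stands in some tumour models named this way, was higher rather than lower under the AKVPSL label, with 248 ± 26.2 against 153 ± 4.24 CPM in GFP+ and 180 ± 26.1 against 139 ± 14.2 CPM in GFP- cells. Total Smad4 counts therefore do not check the genotype label, and genotype comparisons below are between libraries as labelled. Epithelial markers were present in all groups, with 19 genes summing to 11578 to 13604 CPM as group means.

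In brief, 3 patterns were seen. Beta members were lower in libraries labelled AKVPSL than in those labelled AKVPL in both sorts, most of all Pcdhb9. Reads in the exons that gamma members share were lowest in AKVPL GFP+ cells and high in both AKVPSL groups. Reads that belonged to single gamma members differed in direction from the shared reads most often between the genotypes in GFP- cells. There 11 of 15 tested members had values below 0 while the shared reads rose. Of these, 6 were called lower, against 30.7% of all tested genes, whose median was 0.00, so this count of calls lies near the background. The filter on low counts can be passed through a single group, so members high in AKVPL GFP- could enter through that group. Pcdhga10, for example, had 12, 10, 13 and 7 such reads there against 2, 4, 3 and 8 in AKVPSL GFP-. The count of falls is therefore description only. In size the reads of single members differed from the shared reads elsewhere too, as for Pcdhgb6 in the sort of AKVPL (-0.12 against -1.58 for the shared reads). Pcdhgc3 and Pcdhgc5 were highest in AKVPL GFP- cells and Pcdhgb6 in AKVPSL GFP+ cells. Alpha members were close to 0 throughout.

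Alpha cluster. The 14 alpha genes lie between 36930285 and 37188897 of chromosome 18 (GRCm38, RefSeq). None passed the filter on low counts, so none was tested. Their counts were nearly the same from member to member within a library, because reads in the shared constant exons are counted for each of them. The highest count of any alpha member in a library ran from 0 to 8. The lowest member of each library, which is the most that the shared exons can hold, had 14 counts summed over AKVPL GFP-, 3 over AKVPL GFP+, 12 over AKVPSL GFP- and 7 over AKVPSL GFP+. Reads beyond that shared number, which would mark a single member, were as few as 9, 3, 0 and 8 over all 14 members in the same order of groups. Pcdhac2, a C-type member, held 5 of the 9 in AKVPL GFP- and Pcdhac1 held none in any group. Pcdha9 held 5 of the 8 in AKVPSL GFP+, and Pcdha10 held 2. With no filter on low counts edgeR called 1 of the 14 alpha members in the sort of AKVPL, lower in GFP+ cells, and none in the other comparisons, and DESeq2 called 1 in the same sort. At 8 counts or fewer this rests on very few reads, of which the shared ones are counted once for each member.

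Beta cluster, levels. The 22 beta genes lie between 37264998 and 37521419 of chromosome 18, and 19 of them passed the filter. Pcdhb1 had 0 counts in all 16 libraries, which allows a level of up to 0.00707 CPM over all libraries (3 counts of the total; counting error only). Pcdhb2 and Pcdhb6 also failed the filter, with RPKM (reads per kilobase per M reads, as deposited) of at most 0.0746 and 0.196. In AKVPL cells Pcdhb9 led the cluster. It stood at 21.1, 15.9, 17.1 and 19.6 RPKM in the 4 AKVPL GFP- libraries and at 24.3, 18.8, 17.9 and 21.7 RPKM in AKVPL GFP+. Its RPKM was 0.686, 0.814, 0.845 and 0.960 in AKVPSL GFP- and 0.984, 0.987, 1.69 and 1.54 in AKVPSL GFP+. All 8 AKVPSL libraries were thus below all 8 AKVPL libraries. Pcdhb9 made up 35.1% ± 2.13 (SD, n = 4) of the summed RPKM of the beta members in AKVPL GFP- and 37.7% ± 1.63 in AKVPL GFP+, but 10.6% ± 1.37 in AKVPSL GFP- and 8.11% ± 0.620 in AKVPSL GFP+.

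The next in order of RPKM in AKVPL were Pcdhb5 and Pcdhb17. Pcdhb5 stood at 7.21, 6.14, 6.37 and 8.85 RPKM in AKVPL GFP- and 7.99, 6.99, 7.04 and 6.74 RPKM in AKVPL GFP+. It fell to 0.279, 0.420, 0.514 and 0.696 RPKM in AKVPSL GFP- and 1.05, 0.914, 1.35 and 1.18 RPKM in AKVPSL GFP+, so that the AKVPSL sorts did not overlap either. Pcdhb17 stood at 6.85, 5.91, 6.81 and 6.93 RPKM in AKVPL GFP- and 6.77, 6.01, 6.02 and 6.35 RPKM in AKVPL GFP+. In AKVPSL GFP- it stood at 1.60, 1.87, 1.81 and 2.83 RPKM and in AKVPSL GFP+ at 3.12, 2.94, 5.53 and 4.51 RPKM. Pcdhb5 and Pcdhb17 did not differ beyond their spread in AKVPL GFP- (7.14 ± 1.23 and 6.63 ± 0.479 RPKM, SD, n = 4). In AKVPSL the order was another: Pcdhb17 had the highest mean in both sorts, followed by Pcdhb9 (0.826 ± 0.113) and Pcdhb16 (0.726 ± 0.320) in GFP- cells, which overlapped, and by Pcdhb16 (2.32 ± 1.01) and Pcdhb20 (1.33 ± 0.151) in GFP+ cells, which overlapped as well. In AKVPL the beta members together summed to 52.6 ± 8.11 RPKM in GFP- and 54.6 ± 5.54 RPKM in GFP+ cells, and in AKVPSL to 7.93 ± 1.74 and 16.02 ± 4.44 RPKM. At least 1 RPKM was reached by 9 to 15 members per library in AKVPL GFP-, by 10 to 13 in AKVPL GFP+, by 1 to 2 in AKVPSL GFP- and by 3 to 6 in AKVPSL GFP+.

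**Figure D1:**
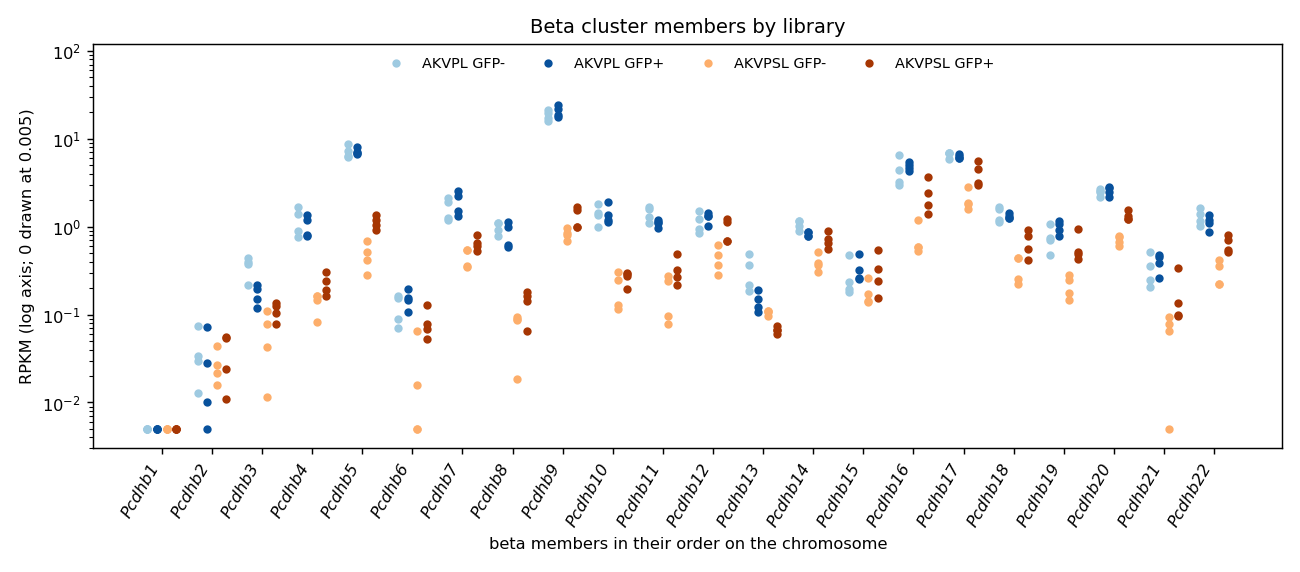
RPKM of the 22 beta members (log axis, values of 0 drawn at 0.005) in each of the 16 libraries, coloured by group, in chromosomal order. Pcdhb9 reaches 24.3 RPKM in AKVPL and at most 1.69 RPKM in AKVPSL, while Pcdhb17 comes closest between the genotypes among the 3 highest members.

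Beta cluster, AKVPSL against AKVPL. Which members differ between the genotypes was asked within each sort, with edgeR's quasi-likelihood test over 18072 genes and a threshold of 0.05 on the adjusted p. Among GFP+ cells 15 of the 19 tested beta members were lower in AKVPSL, against 28.1% of all tested genes called lower, and none was higher. Among GFP- cells 18 of 19 were lower, against 30.7% of all tested genes, and again none was higher. The median log2 fold change of the 19 was -1.07 in GFP+ and -1.98 in GFP- cells, where the medians of all tested genes were -0.05 and 0.00. Of the 19, 13 had every AKVPSL library below every AKVPL library by RPKM in GFP+ cells, as 26.4% of all tested genes did, and 18 had it in GFP- cells, as 29.2% did. The unadjusted p was under 0.05 for no higher beta member in either sort, and DESeq2 called no higher beta member either.

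Pcdhb9 changed most, with a log2 fold change of -4.00 ± 0.18 (SE; edgeR adjusted p = 2.77e-12) in GFP+ and -4.38 ± 0.19 (adjusted p = 2.63e-12) in GFP- cells. This equals a 20.9-fold lower level in GFP- cells. Pcdhb5 followed at -2.68 ± 0.20 (adjusted p = 2.35e-09) and -3.81 ± 0.22 (adjusted p = 8.65e-11). Pcdhb8 stood at -2.53 ± 0.35 and -3.58 ± 0.39, Pcdhb10 at -2.41 ± 0.30 and -2.73 ± 0.32, and Pcdhb4 at -2.19 ± 0.30 and -2.97 ± 0.33, all past the threshold. Pcdhb16 and Pcdhb17 fell less in GFP+ cells (-1.07 ± 0.31 and -0.64 ± 0.19, adjusted p = 0.00893 and 0.00729) and by -2.46 ± 0.34 and -1.61 ± 0.19 in GFP- cells. The members that did not pass in GFP+ cells were Pcdhb3, Pcdhb12, Pcdhb14 and Pcdhb15, and Pcdhb15 did not pass in GFP- cells either (-0.41 ± 0.44, adjusted p = 0.419).

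The fall is also given by stretches of the cluster. The 8 tested members from Pcdhb3 to Pcdhb11, at the side of the alpha cluster, had a median of -2.30 in GFP+ and -2.93 in GFP- cells. The 11 members from Pcdhb12 to Pcdhb22, at the side of the gamma cluster, had medians of -0.81 and -1.70. The division after Pcdhb11 was chosen after the values were seen and was not tested. The values overlapped, from -4.00 to -0.61 in the first stretch and from -1.24 to -0.06 in the second in GFP+ cells. Members Pcdhb1 to Pcdhb11 held 62.2% ± 1.73 (SD, n = 4) of the summed beta RPKM in AKVPL GFP- and 63.0% ± 1.76 in AKVPL GFP+, against 31.1% ± 3.47 in AKVPSL GFP- and 27.0% ± 2.11 in AKVPSL GFP+.

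**Figure D2:**
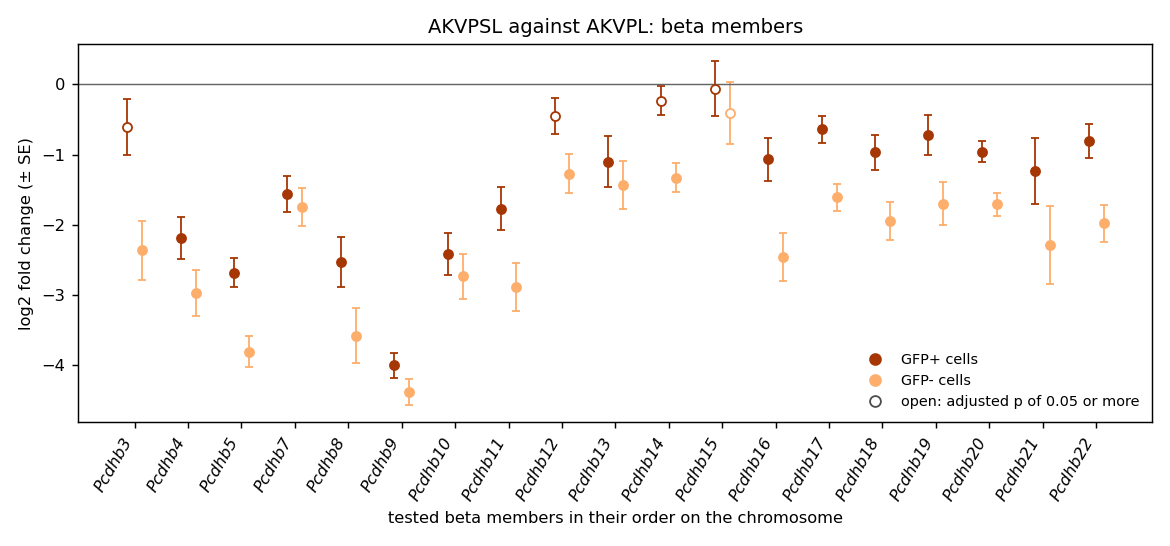
Log2 fold change (± SE, edgeR, 4 libraries a group) of AKVPSL against AKVPL for the 19 tested beta members in chromosomal order, for GFP+ and GFP- cells; open points did not pass the threshold. The largest falls, -4.00 and -4.38, are those of Pcdhb9, and the smallest in both sorts those of Pcdhb15.

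Beta cluster, GFP+ against GFP-. This comparison asks how the cells with the reporter differ from those without it in each genotype. The main fit did not pair the sorts by replicate number. In AKVPL 1 beta member, Pcdhb13, was lower in GFP+ cells (-0.97 ± 0.33, edgeR adjusted p = 0.0257; 16.5% of all tested genes were called lower). None was higher, against 22.6% of all tested genes, with none at an unadjusted p under 0.05 and none by DESeq2. The call of Pcdhb13 was lost without AKVPL GFP+ replicate 3 or 4 and without AKVPL GFP- replicate 1 or 4 (edgeR adjusted p from 0.0588 to 0.0922), and a stricter filter on low counts left it out of the test. With the replicate number as a block, Pcdhb9 was called higher as well (0.26 ± 0.10, adjusted p = 0.0413). The median of the 19 was 0.11, beside 0.14 for all tested genes. It turned to -0.26 when libraries were scaled to the epithelial markers, a scaling that moved the median of all tested genes to -0.22.

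In AKVPSL 12 of 19 beta members were higher in GFP+ cells, against 22.4% of all tested genes, and none was lower, against 24.6%. No beta member was lower at an unadjusted p under 0.05 or by DESeq2. The largest values were those of Pcdhb16 (1.68 ± 0.33, edgeR adjusted p = 0.000805), Pcdhb19 (1.48 ± 0.30, adjusted p = 0.000720), Pcdhb21 (1.44 ± 0.57, adjusted p = 0.0469) and Pcdhb5 (1.25 ± 0.21, adjusted p = 0.000165). Pcdhb17 rose by 0.99 ± 0.19 and Pcdhb9 by 0.65 ± 0.19. By RPKM 11 of the 19 had every AKVPSL GFP+ library above every AKVPSL GFP- library, as 19.3% of all tested genes did. For 1 of the 19, Pcdhb13, every AKVPSL GFP+ library lay below every AKVPSL GFP- library (at most 0.0740 against at least 0.0972 RPKM). Pcdhb13 was not called there (-0.64 ± 0.37, edgeR adjusted p = 0.171). The share of all tested genes apart in that direction was not taken. For Pcdhb16 the AKVPSL GFP- values were 0.585, 0.588, 0.528 and 1.20 RPKM and the AKVPSL GFP+ values 1.76, 1.39, 3.69 and 2.44 RPKM. For Pcdhb19 they were 0.178, 0.250, 0.145 and 0.2801 RPKM against 0.509, 0.427, 0.940 and 0.491 RPKM. In both members replicate 3 was the highest of the AKVPSL GFP+ libraries.

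The difference between the sort effects, AKVPSL minus AKVPL, was estimated above 0 for all 19 tested beta members and called above 0 for 7, against 7.01% of all tested genes. It was called below 0 for none, against 13.7%. No beta member had a difference below 0 at an unadjusted p under 0.05 or by DESeq2. The 7 were Pcdhb3, Pcdhb5, Pcdhb14, Pcdhb16, Pcdhb17, Pcdhb20 and Pcdhb22, and Pcdhb5 had 1.13 ± 0.28 (edgeR adjusted p = 0.00917). The count of called members came to 4 without AKVPL GFP+ replicate 2, without AKVPL GFP- replicate 4, without AKVPSL GFP+ replicate 3 or without AKVPSL GFP- replicate 3. Pcdhb5, Pcdhb14, Pcdhb17 and Pcdhb20 were called in all 27 settings run, and Pcdhb16 (1.39 ± 0.45, adjusted p = 0.0409) and Pcdhb3 in 14 of the 27. The 4 simple comparisons share groups with one another and with this difference, so their values are not independent.

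**Figure D3:**
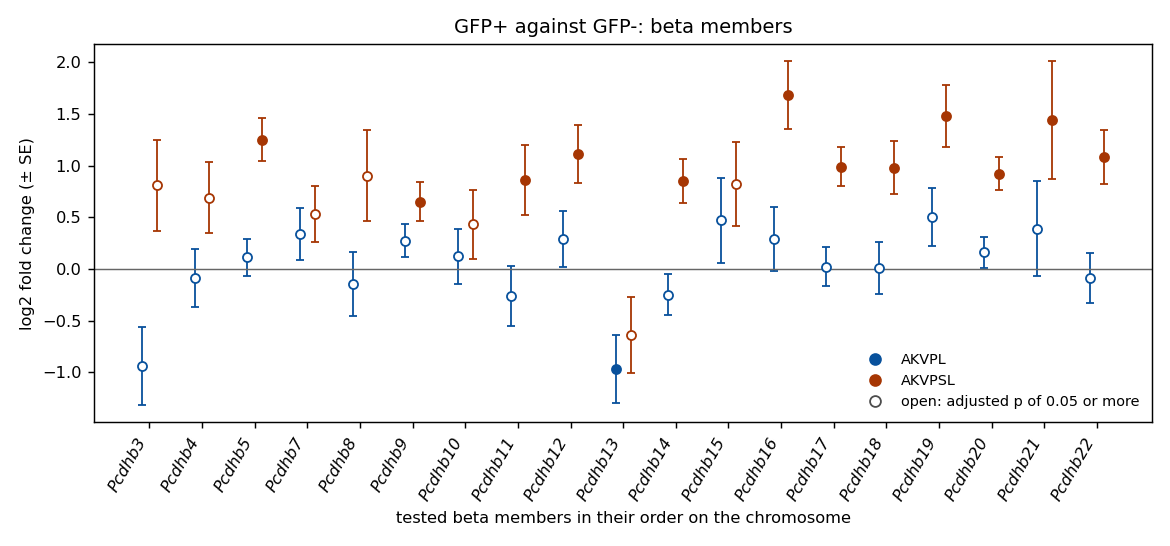
Log2 fold change (± SE, edgeR, 4 libraries a group) of GFP+ against GFP- cells for the 19 tested beta members, in AKVPL and in AKVPSL; open points did not pass the threshold. In AKVPL 1 member passed, Pcdhb13 at -0.97, while in AKVPSL 12 passed, all above 0.

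Gamma cluster, what the counts hold. The 22 gamma genes lie between 37661775 and 37841873 of chromosome 18, and all passed the filter. In GENCODE M21 they share 3 exons of 59, 89 and 1971 bases (37825021 to 37825079, 37833265 to 37833353 and 37839903 to 37841873), 2119 bases in all, while the exons of a single member run from 2499 to 3682 bases. Within a library the deposited counts of the 22 members were nearly equal: in AKVPL GFP+ replicate 1 the lowest was 515, the median 519 and the highest 642, and in AKVPSL GFP+ replicate 1 they were 4015, 4023 and 4739. The 3 read-through genes Gm37013, Gm38666 and Gm38667, which in RefSeq run from within the alpha cluster to the end of the gamma cluster, carry nearly the same number. Gm38666 and Gm38667 were equal in all 16 libraries, Gm37013 matched them in 15 and was 1 count above in the other, and Gm38666 was the lowest count of all of these genes in all 16. Each library's lowest count was therefore taken as the reads of the shared exons, which was 98.7% to 99.9% of the median gamma count, and what a member had above it as its own reads. The 22 gamma calls on the deposited counts are in effect 1 measurement. GENCODE also lists Gm38182, whose transcripts end in the same exons, so shared reads need not all come from the 22 members.

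Gamma cluster, shared reads. Shared counts were 1496, 1124, 1154 and 510 in the AKVPL GFP- libraries and 515, 467, 434 and 334 in AKVPL GFP+. They were 3137, 1963, 2106 and 2363 in AKVPSL GFP- and 4014, 3046, 3596 and 2647 in AKVPSL GFP+. Scaled for depth these were 48.4 ± 7.16 CPM (SD, n = 4) in AKVPL GFP-, 16.2 ± 1.91 CPM in AKVPL GFP+, 96.5 ± 4.48 CPM in AKVPSL GFP- and 108 ± 9.21 CPM in AKVPSL GFP+. The 2 AKVPL groups overlapped with no other group, and the 2 AKVPSL groups overlapped with each other.

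On the deposited counts all 22 gamma members were lower in GFP+ than in GFP- cells of AKVPL (log2 fold changes from -1.73 to -1.39). Of all tested genes 16.5% were called lower there. The shared reads alone gave -1.58 ± 0.11 (edgeR adjusted p = 7.05e-08). In AKVPSL 1 of 22 members was called, Pcdhgb6, higher in GFP+ cells (22.4% of all tested genes called higher). The shared reads gave 0.16 ± 0.11 (adjusted p = 0.225). Between the genotypes all 22 were higher in AKVPSL, by 2.63 to 2.75 in GFP+ cells (24.9% of all tested genes called higher) and by 0.74 to 1.00 in GFP- cells (32.0%). The shared reads gave 2.74 ± 0.11 (adjusted p = 1.59e-12) and 0.99 ± 0.11 (adjusted p = 2.98e-07). All 22 were called above 0 in the difference of the sort effects (7.01% of all tested genes), and the shared reads gave 1.74 ± 0.15. Beta members and shared gamma reads thus differed between the genotypes in opposite directions.

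Gamma cluster, own reads. Own reads of all 22 members together were fewer per shared read in AKVPSL. Per kilobase of exon, and summed over the 22 members, they came to 49.3%, 44.1%, 39.7% and 54.1% of the shared reads in the AKVPL GFP- libraries and to 42.2%, 53.1%, 47.0% and 43.7% in AKVPL GFP+. The share was 13.8%, 12.2%, 10.7% and 28.5% in AKVPSL GFP- and 23.7%, 20.8%, 40.4% and 33.2% in AKVPSL GFP+. The AKVPSL GFP- libraries were all below the AKVPL libraries, and AKVPSL GFP+ replicate 3 lay within the AKVPL range. Own reads summed to 27.6 ± 4.06 CPM (SD, n = 4) in AKVPL GFP-, 9.25 ± 1.08 CPM in AKVPL GFP+, 19.3 ± 9.54 CPM in AKVPSL GFP- and 39.7 ± 15.5 CPM in AKVPSL GFP+. Exon lengths are those of GENCODE, as the authors' gene models are unknown here, so these shares describe and were not tested.

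**Figure D4:**
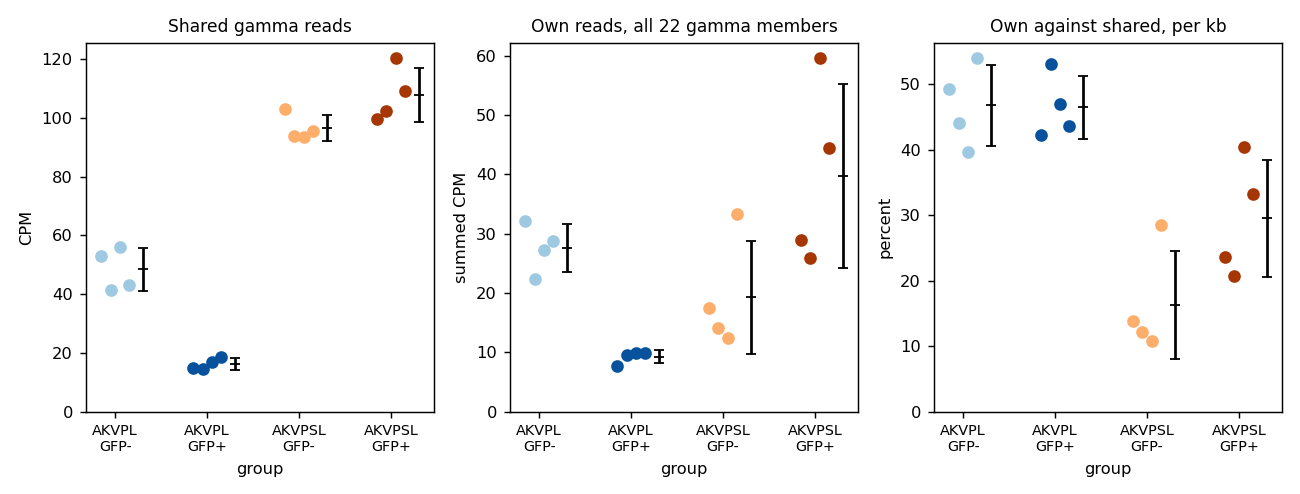
Shared gamma reads (CPM), own reads summed over the 22 gamma members (CPM) and own reads as a percent of shared reads per kilobase, by library (points) and as group mean ± SD (n = 4). Shared reads are near 100 CPM in both AKVPSL groups (96.5 and 108 CPM) against 16.2 CPM in AKVPL GFP+, while the share of own reads is lowest in AKVPSL GFP-.

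Pcdhgb6 and Pcdhgc3 held most own reads. Pcdhgc3 took 43.1% ± 1.93 (SD, n = 4) of them in GFP- and 21.6% ± 4.39 in GFP+ cells of AKVPL, and 22.6% ± 5.08 and 11.99% ± 1.86 in those of AKVPSL. Pcdhgb6 took 15.3% ± 4.87, 42.5% ± 4.70, 46.0% ± 8.05 and 61.6% ± 1.92 in the same order. The member with the most own reads was thus Pcdhgc3 in every AKVPL GFP- library and Pcdhgb6 in every library of the other groups. Of the 22 members 15 passed the filter on own reads. A member high in a single group, such as AKVPL GFP-, can pass it through that group, so counts among the 15 only describe. With shared reads counted once, an alternative chosen after seeing the data, 11 of the 15 were lower in GFP+ than in GFP- cells of AKVPL (16.4% of all tested genes). In AKVPSL 3 were higher in GFP+ cells (22.5% of all tested genes), Pcdhgb6, Pcdhgb2 and Pcdhga7. Between the genotypes 8 were higher in AKVPSL GFP+ (24.9%), while in GFP- cells 6 were lower (30.7%) and 1 was higher (32.0%). The difference of the sort effects was called above 0 for 11 (6.93%), and its estimate was above 0 for all 15. Without AKVPSL GFP- replicate 4, when 17 members passed the filter, 10 were lower and 0 higher in GFP- cells, and with epithelial scaling it was 10 and 0 of 15. Without AKVPSL GFP+ replicate 3 the difference was called for 7 of 17.

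Pcdhgc3, a C-type member, had own reads of 14.1, 10.2, 11.4 and 11.9 CPM in AKVPL GFP- and 1.41, 1.67, 2.35 and 2.66 CPM in AKVPL GFP+. It had 4.402, 4.02, 2.40 and 5.82 CPM in AKVPSL GFP- and 4.00, 3.36, 5.69 and 5.19 CPM in AKVPSL GFP+. AKVPL GFP- stood above all other libraries, and the 2 AKVPSL groups overlapped. Its log2 fold change was -2.57 ± 0.27 (edgeR adjusted p = 1.49e-06) for GFP+ against GFP- in AKVPL and 0.13 ± 0.25 (adjusted p = 0.708) in AKVPSL. Between the genotypes it was 1.19 ± 0.26 (adjusted p = 0.000911) in GFP+ cells and -1.51 ± 0.25 (adjusted p = 4.92e-05) in GFP- cells. In GFP- cells the own reads of Pcdhgc3 were thus lower in AKVPSL while the shared reads were higher, and the deposited count of Pcdhgc3, which is mostly shared reads, rose by 0.74 ± 0.11. Over 20 further settings the value in GFP- cells ran from -1.77 to -1.30.

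Pcdhgc5, another C-type member, went the same way at a lower level. It had 1.81, 1.66, 1.99 and 2.37 CPM of own reads in AKVPL GFP-, 0.144 to 0.587 CPM in AKVPL GFP+, 0.430 to 0.566 CPM in AKVPSL GFP- and 0.422 to 0.702 CPM in AKVPSL GFP+. No other group reached the AKVPL GFP- values. The log2 fold change of AKVPSL against AKVPL was -1.96 ± 0.34 (edgeR adjusted p = 7.80e-05) in GFP- cells and 0.41 ± 0.37 (adjusted p = 0.359) in GFP+ cells, and that of the sort in AKVPL was -2.25 ± 0.35 (adjusted p = 7.18e-05). Pcdhgc4 held 29, 67, 34 and 85 own counts summed over AKVPL GFP-, AKVPL GFP+, AKVPSL GFP- and AKVPSL GFP+, and passed the threshold in no comparison of own reads.

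Pcdhgb6 showed another pattern. Its own reads were 5.39, 3.02, 2.66 and 6.10 CPM in AKVPL GFP- and 3.66, 4.03, 3.6 and 4.33 CPM in AKVPL GFP+, which overlapped (log2 fold change -0.12 ± 0.40, edgeR adjusted p = 0.838). They were 6.93, 5.69, 5.82 and 18.9 CPM in AKVPSL GFP- and 17.99, 16.6, 36.5 and 26.3 CPM in AKVPSL GFP+. All AKVPSL GFP+ libraries were above all AKVPL libraries, while AKVPSL GFP- replicate 4 lay within the range of AKVPSL GFP+. Between the genotypes Pcdhgb6 rose by 2.64 ± 0.40 (adjusted p = 4.00e-05) in GFP+ cells. In GFP- cells it rose by 1.14 ± 0.39 (adjusted p = 0.0193), a call that was lost without AKVPSL GFP- replicate 4 (0.57, adjusted p = 0.0959), without AKVPL GFP- replicate 2 (adjusted p = 0.0593), without AKVPL GFP- replicate 3 (adjusted p = 0.0543) and with epithelial scaling (0.87, adjusted p = 0.0771). In AKVPSL it was higher in GFP+ cells by 1.38 ± 0.38 (adjusted p = 0.00716). The difference of the sort effects did not pass (1.5 ± 0.55, adjusted p = 0.0643). It passed without AKVPSL GFP- replicate 4 (2.10 ± 0.39, adjusted p = 0.00149), without AKVPL GFP- replicate 3 (adjusted p = 0.0470), with the replicate block (1.55 ± 0.43, adjusted p = 0.0211) and with epithelial scaling (adjusted p = 0.0345).

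Pcdhgb2 was next among the called members, with 66, 22, 98 and 255 own counts summed over AKVPL GFP-, AKVPL GFP+, AKVPSL GFP- and AKVPSL GFP+. It rose by 3.36 ± 0.49 (edgeR adjusted p = 1.23e-05) in AKVPSL against AKVPL in GFP+ cells, the largest value among own reads in that comparison. In AKVPL it fell by 1.84 on the log2 scale in GFP+ cells (adjusted p = 0.00953), and in GFP- cells it gave 0.41 ± 0.44 between the genotypes (adjusted p = 0.428). In AKVPSL its rise in GFP+ cells (1.11 ± 0.41, adjusted p = 0.0330) was lost in 9 of the settings that leave out a library, with an adjusted p of up to 0.203. The largest rise of own reads in GFP+ cells of AKVPSL was that of Pcdhga7 (2.21 ± 0.45, adjusted p = 0.000744). It kept an adjusted p of at most 0.00525 over 20 further settings. Its own counts were 69, 43, 36 and 204 in the same order of groups, and its difference of the sort effects was 3.24 ± 0.66 (adjusted p = 0.00258). Pcdhgb8, which RefSeq lists as a transcribed pseudogene, had 1, 13, 9 and 50 own counts and was not tested. The other members that the rule names from their deposited counts (Pcdhga4, Pcdhga5, Pcdhga6, Pcdhga8, Pcdhga9, Pcdhgb4 and Pcdhgb7) held 2 to 101 own counts summed over a group.

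**Figure D5:**
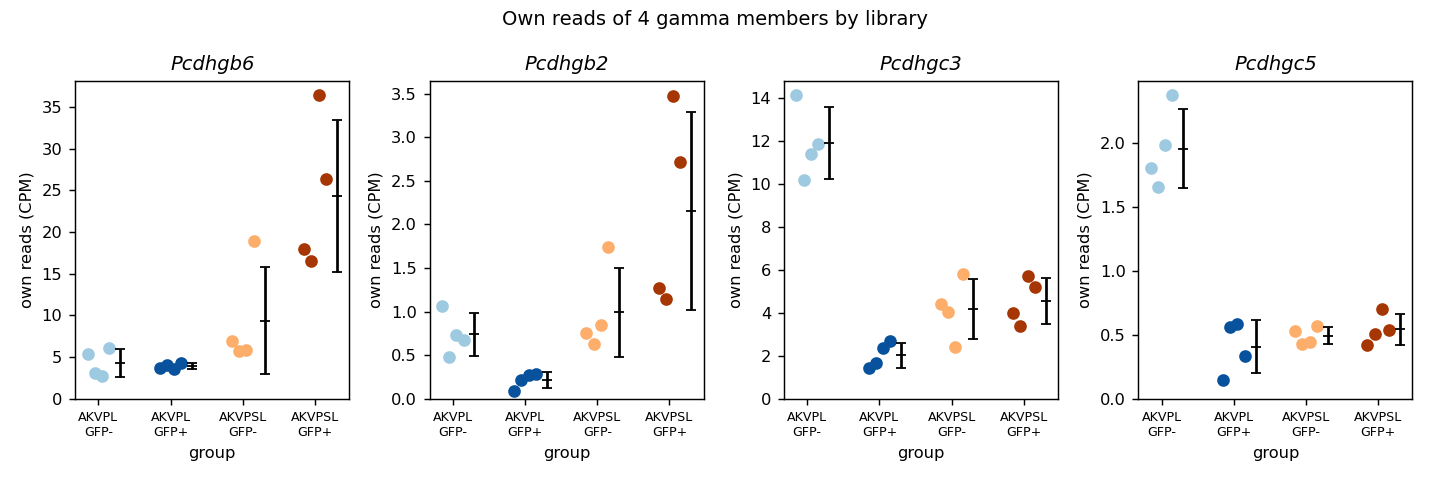
Own reads (CPM) of Pcdhgb6, Pcdhgb2, Pcdhgc3 and Pcdhgc5 by library (points) and as group mean ± SD (n = 4). Pcdhgc3 and Pcdhgc5 are highest in AKVPL GFP- (up to 14.1 and 2.37 CPM), Pcdhgb6 and Pcdhgb2 in AKVPSL GFP+ (up to 36.5 and 3.48 CPM).

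Cells other than epithelial cells. The sorted cells held markers of other types, and these moved with the sort. The 20 fibroblast and pericyte markers summed to 5271 to 11173 CPM in AKVPL GFP-, 706 to 1374 CPM in AKVPL GFP+, 1953 to 3353 CPM in AKVPSL GFP- and 305 to 1280 CPM in AKVPSL GFP+. In AKVPL 16 of the 20 were lower and 1 higher in GFP+ cells, against 16.5% and 22.6% of all tested genes. Shared gamma reads, Pcdhgc3 and Pcdhgc5 were lower there as well. In AKVPSL 18 were lower and 1 higher, against 24.6% and 22.4%, and shared gamma reads did not pass. Between the genotypes 16 of 20 were lower in AKVPSL GFP- cells, against 30.7%, and 3 in AKVPSL GFP+ cells, against 28.1%. Own reads of Pcdhgc3 and Pcdhgc5 and most beta members were lower in AKVPSL GFP- cells too. In AKVPSL GFP+ cells these markers had their lowest mean sum, and shared gamma reads and own reads of Pcdhgb6 their highest means. Beta members in AKVPL summed to 54.6 RPKM in GFP+ and 52.6 RPKM in GFP- cells. The fibroblast and pericyte markers there had means of 1041 and 8324 CPM. The part of these cells in any of these results was not tested.

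Endothelial markers (14 genes) summed to means of 673, 179, 428 and 297 CPM, and leukocyte markers (20 genes) to 6268, 794, 1852 and 235 CPM, in AKVPL GFP-, AKVPL GFP+, AKVPSL GFP- and AKVPSL GFP+. Flt1, Vwf and Esam, singled out after their values were seen, held 254 of the 297 CPM in AKVPSL GFP+, and the other 11 endothelial markers summed to 517 ± 156, 79.3 ± 16.9, 230 ± 147 and 43.2 ± 13.6 CPM (SD, n = 4) in the same order of groups. In AKVPL 13 of 14 endothelial and 16 of 17 tested leukocyte markers were lower in GFP+ cells, and in AKVPSL 11 and 16 were, while Vwf was higher there. Of all tested genes 16.5% were lower in AKVPL, and 24.6% lower and 22.4% higher in AKVPSL. Between the genotypes 12 of the 17 leukocyte markers were lower in AKVPSL GFP+ (median -1.74) and 9 in AKVPSL GFP- (median -1.21). None was higher. Of the 14 endothelial markers 3 were lower and 4 higher in AKVPSL GFP+, and 6 and 2 in AKVPSL GFP-. All tested genes gave 28.1% lower and 24.9% higher in GFP+, and 30.7% and 32.0% in GFP- cells. The part of these cells in any result was not tested. Cd3g was at 0 counts in all groups but AKVPL GFP+. Glial and neuronal markers (20 genes), the cells in which clustered protocadherins are best known, summed to 133 ± 27.1 CPM (SD, n = 4), 182 ± 14.6, 94.5 ± 33.1 and 201 ± 64.5 CPM in the same order. Most of this was Erbb3, a receptor that epithelial cells express as well, at 102 ± 27.8, 160 ± 14.8, 76.2 ± 35.2 and 184 ± 62.2 CPM. The other 19 summed to 31.2 ± 0.911, 21.9 ± 3.37, 18.2 ± 3.59 and 16.9 ± 2.82 CPM, highest in AKVPL GFP-. Among the defining glial ones Sox10, Gfap and Foxd3 were at 0 counts in AKVPSL GFP-, and Gfap was in AKVPSL GFP+. Of the 12 tested, 3 were higher and 6 lower in AKVPSL in each sort, with Nefl, a neurofilament gene, higher by 5.51 ± 0.44 (edgeR adjusted p = 6.88e-09) in GFP+ and 6.03 ± 0.50 (adjusted p = 9.29e-09) in GFP- cells. Of all tested genes 24.9% were higher and 28.1% lower in AKVPSL GFP+, and 32.0% and 30.7% in AKVPSL GFP-. In sorted bulk cells fewer cells of a type and less RNA per cell cannot be told apart.

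Related genes. Of 12 non-clustered protocadherins, which lie outside the clusters and have no shared exons, 6 were tested. In AKVPL 3 of the 6 were lower in GFP+ cells, and in AKVPSL 4 were lower and 1 was higher. Of all tested genes 16.5% were lower in the AKVPL sort, and 24.6% lower and 22.4% higher in the AKVPSL sort. Between the genotypes 1 was higher and 1 lower in AKVPSL GFP+ (24.9% and 28.1% of all tested genes). In AKVPSL GFP- 3 were lower (30.7%). Pcdh19, a delta-type protocadherin, was lower in AKVPSL in both sorts (-2.17 ± 0.24 and -1.54 ± 0.23, edgeR adjusted p = 4.08e-07 and 1.32e-05). Pcdh18 was the 1 that rose in AKVPSL GFP+ (0.67 ± 0.21, adjusted p = 0.0131).

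Of 27 regulators of promoter choice, DNA methylation and cohesin loops, 14 were higher in GFP+ cells of AKVPL and 22 in GFP+ cells of AKVPSL, and none was lower in either. Of all tested genes 22.6% and 22.4% were called higher in these sorts, and 16.5% and 24.6% lower. Between the genotypes 12 were higher and 5 lower in AKVPSL GFP+, and 8 were higher and 5 lower in AKVPSL GFP-, with medians of 0.29 and 0.06. In GFP+ cells 24.9% of all tested genes were called higher and 28.1% lower. The 8 and 5 in GFP- cells are smaller shares than the 32.0% and 30.7% of all tested genes called there. The largest change was that of Tet1, an enzyme that oxidises methylated cytosine. Its CPM in the GFP- and GFP+ groups was 6.21 ± 1.56 and 7.18 ± 1.84 (SD, n = 4) for AKVPL, against 0.255 ± 0.173 and 0.176 ± 0.126 for AKVPSL. Its log2 fold change was -5.31 ± 0.47 (edgeR adjusted p = 2.66e-08) in GFP+ and -4.58 ± 0.46 (adjusted p = 1.32e-07) in GFP- cells. Rad21, a cohesin subunit, was higher in AKVPSL by 0.93 ± 0.10 and 0.95 ± 0.10, and Ctcf by 0.32 ± 0.08 and 0.28 ± 0.08. No methylation or binding was measured here.

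Of 20 genes that flank the clusters on chromosome 18 or lie between them, 13 were higher and 1 lower in AKVPSL in each sort. Their medians were 0.40 in GFP+ and 0.48 in GFP- cells. Pcdh1 and Pcdh12 are in this list and also among the non-clustered protocadherins above. Of all tested genes 24.9% were higher and 28.1% lower in GFP+, and 32.0% and 30.7% in GFP- cells. Hars, a histidyl-tRNA synthetase gene, rose by 0.85 ± 0.10 (edgeR adjusted p = 1.73e-06) and 1.21 ± 0.11 (adjusted p = 2.04e-08). Diaph1, a formin gene whose end lies 1727 bases from the gamma cluster, rose by 0.50 ± 0.09 and 0.43 ± 0.09. For the sort, 6 neighbours were higher and 4 lower in AKVPL, and none was higher and 2 were lower in AKVPSL. The shares of all tested genes were 22.6% higher and 16.5% lower in AKVPL, and 22.4% and 24.6% in AKVPSL.

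Of 20 genes for proteases that cut protocadherins and for proteins that bind their cytoplasmic ends, 5 were higher and 7 lower in AKVPSL GFP+, and 6 were higher and 8 lower in AKVPSL GFP-. All tested genes gave 24.9% higher and 28.1% lower in GFP+ and 32.0% and 30.7% in GFP- cells, so these counts lie near the background. Ret, a receptor kinase that associates with clustered protocadherins, was lower, at -2.37 and -2.39 in GFP+ and GFP- cells. Fyn, a kinase that binds the cytoplasmic end, was lower, at -3.56 ± 0.30 (edgeR adjusted p = 1.51e-08) and -1.76 ± 0.25 (adjusted p = 9.89e-06). Adam10, the protease that sheds the extracellular part, was lower, at -0.76 ± 0.12 and -0.75 ± 0.12. Brk1, a subunit of the WAVE complex, was higher by 0.73 ± 0.13 and 0.89 ± 0.13. In GFP+ against GFP- cells 4 were higher and 4 lower in AKVPL, and 5 were higher and 7 lower in AKVPSL. The shares of all tested genes were 22.6% and 16.5% in AKVPL, and 22.4% and 24.6% in AKVPSL.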

How the data were processed

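RNA sequencing of 16 libraries was used as deposited. Per the file headers, the count of a gene is the number of reads aligned uniquely to its gene model, and the authors deposited an RPKM value adjusted by a size factor beside it. The submitters' processing notes name GSNAP and GRCm38, with the strand setting unstated. Reads from near-identical stretches of members would be left out by unique alignment, and without strand an overlapping gene on the other strand cannot be told apart. Symbols and positions came from RefSeq for GRCm38 (31049 of 36528 IDs matched), and exons from GENCODE M21.

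Counts were fitted with edgeR 4.0.16 in R 4.3.3 (filterByExpr, TMM, robust quasi-likelihood, a mean per group over all 16 libraries, 12 residual degrees of freedom), with two-sided tests adjusted by Benjamini-Hochberg over 18072 genes. The SE was back-calculated from F. The script was tested on simulated data. No library repeated another: chi-square per degree of freedom between libraries of a group was 9.05 to 73.58. Depth of 10.9 to 41.6 M counts limits members with few reads. Same-numbered libraries of the sorts deviated together in each genotype (correlations of 0.131 to 0.256 in AKVPL and 0.103 to 0.366 in AKVPSL), so the numbers were taken to pair the sorts by the rule of every correlation over 0.1. In AKVPSL, numbers 3 and 4 each matched the other better than their own. The main fit had no term for this pairing, so its p-values for the sorts and their difference ignore it. The replicate block, which has such a term, is given as an alternative.

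Members and gene lists were chosen with earlier results of these data known. Full values are given for the 3 members per cluster with the highest mean RPKM, the C-type members and, per comparison, the 4 called members with the largest fold each way, and up to 4 genes of a list by adjusted p. Ctcf and Diaph1, and Pcdhb3, Pcdhb12, Pcdhb13, Pcdhb14, Pcdhb15, Pcdhb20 and Pcdhga7, were named after their values were seen. Alternatives were other scalings and filters, DESeq2 1.42.0, limma 3.58.1 on log2 RPKM plus 0.1 or 1, a replicate block, only the compared libraries and leaving out each library. Sequences of members, and the level of 1 marker gene, are not reported here.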

Additional observations from a re-analysis of the deposited data

Results flagged for a closer look

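Differences between the genotypes in the effect of the sort were called for the shared gamma reads (1.74 on the log2 scale) and, among the beta members described in full, for Pcdhb5 (1.13), Pcdhb16 (1.39) and Pcdhb17 (0.97), by the edgeR test of the difference itself.

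A library far from the other 3 of its group was looked for in 92 groups of values, of which chance picks about 1 in 20, and 7 were found. In AKVPSL GFP- these were the lowest RPKM of Pcdhb8 (0.0186, replicate 2), the highest of Pcdhb16 (1.20, replicate 4) and the highest own reads of Pcdhgb6 (18.9 CPM, replicate 4). In AKVPSL GFP+ these were the highest RPKM of Pcdhb19 (0.940) and Pcdhb21 (0.336), both in replicate 3. In AKVPL GFP- these were the lowest RPKM of Pcdhb17 (5.91, replicate 2) and the highest own reads of Pcdhgb8 (0.0368 CPM, replicate 2), the latter a single read. AKVPSL GFP- replicate 4 was also the highest of its group in shares of own gamma reads (28.5% against 10.7% to 13.8%).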

How the results depend on the processing

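With shared gamma reads counted once, the number of members called changed most: 12 in place of 23 lower for the sort in AKVPL, 8 in place of 22 higher between the genotypes in GFP+ cells, 1 in place of 22 higher in GFP- cells, and 18 in place of 29 called above 0 in the difference of the sort effects. Among the members that the rule names from their deposited counts, it turned the direction of Pcdhgc4 for the sort in AKVPL (0.93) and, between the genotypes in GFP- cells, of Pcdhga4 (-1.71), Pcdhga9 (-1.27), Pcdhgb7 (-1.45), Pcdhgc3 (-1.51) and Pcdhgc5 (-1.96), since most of each deposited count is shared reads. The turned values of Pcdhgc4 (edgeR adjusted p = 0.292) and Pcdhga9 (adjusted p = 0.0511) did not pass the threshold. Of all 15 tested members, 11 were below 0 between the genotypes in GFP- cells, though members high in AKVPL GFP- could pass the filter through that group. With the replicate block 1 member was called higher for the sort in AKVPL in place of 0, and the block moved no other count by over 1.5 times. Between the genotypes the replicate numbers did not pair the libraries (correlations down to -0.039), and the block left 22 higher and 15 lower in GFP+ cells and 22 higher and 18 lower in GFP- cells. Leaving out each library gave 22 to 24 lower and 0 higher for the sort in AKVPL, 10 to 14 higher and 0 lower in AKVPSL, 22 higher and 12 to 15 lower in GFP+ cells, 22 higher and 18 to 19 lower in GFP- cells, and 26 to 30 called above and 0 below 0 in the difference. The share of higher genes among all called ones for the sort in AKVPL was 57.8%, and it came to 10.8% with scaling to epithelial markers, 42.1% with DESeq2 size factors and 44.9% with library totals. In the difference of the sort effects it was 33.8%, and 81.7%, 49.2% and 44.2% with the same scalings, and between the genotypes in GFP- cells it went from 51.1% to 34.4% with epithelial scaling. Epithelial scaling moved the median of all tested genes from 0.14 to -0.22, from 0.00 to -0.25 and from -0.10 to 0.20 in the sort in AKVPL, the genotypes in GFP- cells and the difference. Of 2487 single-member values over the alternatives, 75 lost their call and 6 reversed, those 6 members above. Depth limits own reads, the alpha members and Pcdhb1, Pcdhb2 and Pcdhb6.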
